A study of Homo sapiens with 24 samples.

Results

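Open chromatin was compared between parental LNCaP cells that received the androgen dihydrotestosterone (DHT) together with enzalutamide (ENZ, written MDV in the library titles) and parental LNCaP cells that received DHT alone. LNCaP is a prostate cancer cell line that depends on androgen. Chromatin was assayed by FAIRE-seq, which sequences the DNA that phenol extraction recovers from fixed, sheared chromatin because few nucleosomes held it. The 3 libraries of LNCaP with DHT and the 3 libraries of LNCaP with DHT+ENZ, chosen by their titles, are 6 of the 24 libraries of the series. All 6 cultures grew in steroid-depleted medium (5% charcoal-stripped serum) during the 3 days before treatment, and then received 10 nM DHT, with or without 10 µM ENZ, for 18 h. The other 18 libraries are parental cells with DMSO (the vehicle) or with ENZ alone, and RES-A, an ENZ-resistant subline derived from LNCaP, with each of the same 4 treatments. RES-A also had 10 µM ENZ in its medium during the 3 days before treatment, which parental cells did not. Both lines stand for 1 lineage, so the libraries are replicate cultures and not separate patients.

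The androgen receptor is a transcription factor that is held in the cytoplasm until it binds an androgen such as DHT. It then enters the nucleus and binds enhancers, often beside the pioneer factor FOXA1, and nucleosomes at those enhancers are displaced. ENZ occupies the ligand-binding pocket of the receptor and hinders its nuclear entry and its binding to DNA. Open chromatin with DHT and with DHT+ENZ therefore bears on the question of which sites depend on a free receptor pocket during an androgen stimulus.

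The number of peaks did not separate the groups. The authors' lists held 82224, 275774 and 212064 peaks in DHT replicates 1, 2 and 3, and 204053, 256014 and 198464 peaks in DHT+ENZ replicates 1, 2 and 3. DHT replicate 1 was far below the other 5 libraries, and the remaining libraries of both groups overlapped. The mean was 190021 ± 98640 (SD, n = 3) with DHT and 219510 ± 31736 (SD, n = 3) with DHT+ENZ (exact two-sided permutation test, p = 0.9, which can be no smaller than 0.1 for 3 against 3). Without DHT replicate 1 the difference changed sign, from 29490 to −24409 (DHT+ENZ minus DHT).

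DHT replicate 1 was also the shallowest of the 6. The total number of reads is not in the peak lists, but the local background of each peak could be recovered from its pileup and fold enrichment. The lowest recovered background, in reads per base, was 0.739 in DHT replicate 1, and it was 5.04 and 5.99 in DHT replicates 2 and 3 and 3.29, 5.7 and 4.75 in the DHT+ENZ replicates. To place libraries of unequal depth on one footing, the 50000 peaks with the largest −log10 p-values were kept in each library, and these are called top-ranked peaks. They were 61.1% of the list of DHT replicate 1 and 18.2% to 25.3% of the other 5 lists. Top-ranked peaks of DHT replicate 1 were shorter, with a median of 209 bp against 363 to 416 bp in the others. Ranking thus equalises the number of peaks but not their length or the certainty of the lowest ranks, and each result below is given with DHT replicate 1 and, where it mattered, without it.

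Apart from DHT replicate 1, which was far from all, the libraries were nearer to their own group than to the other group. The Jaccard index, the base pairs shared by the top-ranked peaks of 2 libraries over the base pairs in either, was 0.6 to 0.615 for the 4 same-group pairs that leave out DHT replicate 1, and 0.559 to 0.588 for the 6 between-group pairs. These ranges did not overlap. DHT replicate 1 had an index of 0.33 and 0.362 with the other DHT libraries and of 0.306 to 0.342 with the DHT+ENZ libraries. It was thus nearer to DHT+ENZ replicates 1 and 3 (0.342 and 0.339) than to DHT replicate 2 (0.33). Treatment accounted for 0.251 of the variance in Jaccard distance (exact permutation test of all 20 relabellings, p = 0.1, the smallest this design allows). The p of this test stayed at 0.1 when any 1 DHT library was left out. It was 0.4, 0.5 and 0.5 without DHT+ENZ replicates 1, 2 and 3.

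Sites that respond to DHT in RES-A gave sets of regions that were chosen without the 6 libraries and could be measured in them. In RES-A, 4148 merged regions had a top-ranked peak in all 3 DHT libraries and in none of the 3 DMSO libraries. They are called DHT-opened regions here, a name that refers to rank and not to the presence of a peak. A peak of any rank was present at 89.2%, 88.5% and 91.4% of them in RES-A DMSO replicates 1, 2 and 3. In parental cells, 59.2%, 66.7% and 66.1% of these regions had a top-ranked peak in DHT replicates 1, 2 and 3. The shares were 51.3%, 44.3% and 45.2% in DHT+ENZ replicates 1, 2 and 3. All 3 DHT+ENZ libraries lay below all 3 DHT libraries, with a mean of 46.9% ± 3.79 (SD, n = 3) against 64.0% ± 4.13 (SD, n = 3). The difference of −17.1 percentage points had an exact two-sided permutation p of 0.1, the smallest possible, and an adjusted p of 0.117 over 7 such tests, so it cannot pass 0.05 in a design of this size. With all deposited peaks in place of top-ranked ones the difference turned to 2.48 percentage points, with DHT replicate 1 (71.9%) below all 3 DHT+ENZ libraries and DHT replicates 2 and 3 (95.5% and 93.3%) above them. In bulk chromatin, a site open in fewer cells and a site less open in every cell cannot be told apart.

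**Figure D1:**
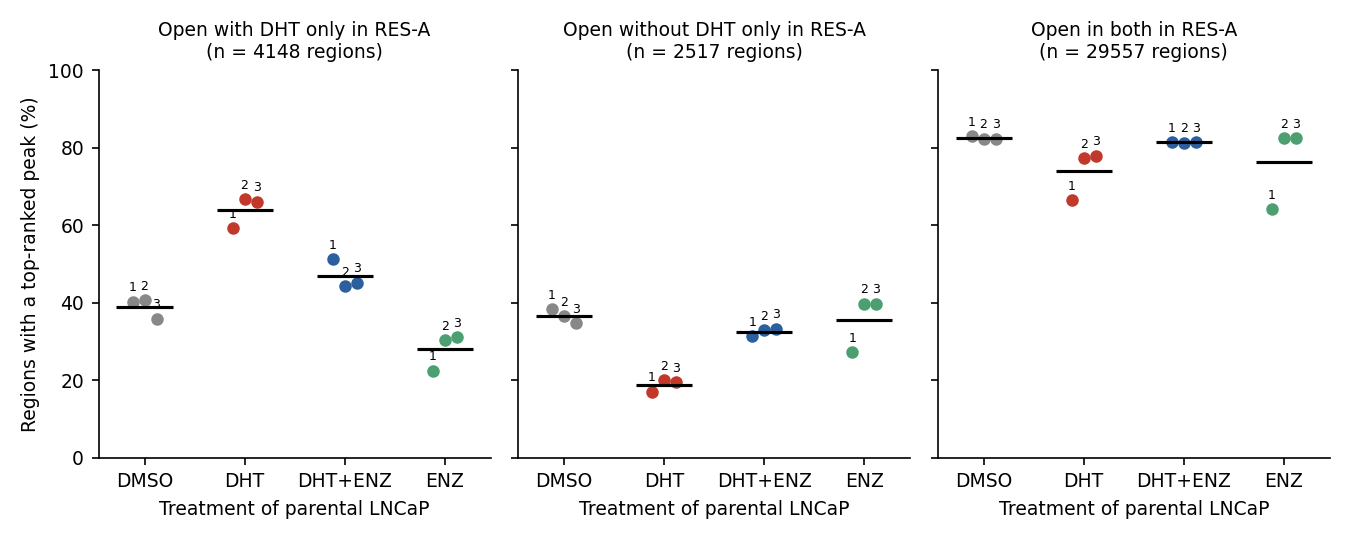
Share of 3 region sets, defined in RES-A, that had a top-ranked peak in each parental LNCaP library (vertical axis, percent), by treatment (horizontal axis); points are libraries marked with their replicate number and bars are means of 3. DHT-opened regions were least shared with ENZ alone and most shared with DHT, with DHT+ENZ between them. DHT-closed regions were least shared with DHT. The sets were defined by top-ranked peaks, so open in a panel title means top-ranked.

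The DHT+ENZ libraries lay above the vehicle at DHT-opened regions when top-ranked peaks were counted. The share was 40.3%, 40.7% and 35.9% in the 3 parental DMSO libraries, with a mean of 39.0% ± 2.65 (SD, n = 3), below all 3 DHT+ENZ libraries. It was 22.5%, 30.4% and 31.1% in the 3 parental ENZ libraries. Replicate 1 of ENZ alone, the lowest value, was shallow as well, with a lowest background of 0.406 reads per base. DHT was 25.0 percentage points above DMSO, and DHT+ENZ was 7.94 percentage points above DMSO and 18.9 above ENZ alone. Each of these 3 differences had an exact permutation p of 0.1 and an adjusted p of 0.129 over 18 comparisons among groups. DMSO replicate 3, the lowest of its group, was also its shallowest, with a lowest background of 1.95 reads per base. With peaks of any rank, DMSO replicates 1, 2 and 3 had 87.1%, 91.2% and 76.1%. The DHT+ENZ libraries then had 90.6%, 90.6% and 86.9%, so these groups overlapped.

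The opposite set gave the opposite sign. In RES-A, 2517 DHT-closed regions had a top-ranked peak in all 3 DMSO libraries and in none of the 3 DHT libraries. In parental cells these had a top-ranked peak in 431, 503 and 492 cases in the 3 DHT libraries and in 790, 831 and 839 cases in the 3 DHT+ENZ libraries. As shares of the 2517, the means were 18.9% ± 1.54 and 32.6% ± 1.04 (SD, n = 3 each), again with no overlap (difference 13.7 percentage points, exact permutation p = 0.1). The parental DMSO libraries had 38.4%, 36.5% and 34.8% and the ENZ libraries had 27.3%, 39.8% and 39.8%. DHT+ENZ was 3.99 percentage points below DMSO with no overlap, and the difference of −3.03 from ENZ alone was smaller than the spread of the ENZ libraries (SD 7.24, exact permutation p = 0.4).

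Another RES-A set served as a reference. The 29557 regions with a top-ranked peak in all 3 DHT and all 3 DMSO libraries of RES-A had one in 66.5%, 77.3% and 78.0% of cases in the parental DHT libraries, and in 81.5%, 81.3% and 81.4% in the DHT+ENZ libraries. Commonly open regions were therefore 7.45 percentage points more often top-ranked with DHT+ENZ, and 3.75 without DHT replicate 1, the lowest library. The difference at DHT-opened regions had the opposite sign to this offset. At DHT-closed regions it had the same sign as the offset and was larger. Every library holds the same number of top-ranked peaks, so more of them at commonly open regions leave fewer for other regions. The lower share at DHT-opened regions is therefore not independent of the offset, and how much of it follows from the offset was not tested.

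Within the DHT-opened regions the parental pattern was mixed. More DHT than DHT+ENZ libraries had a top-ranked peak at 1491 of the 4148 regions (35.9%), and the reverse held at 275 (6.63%). A top-ranked peak was present in all 6 libraries at 1280 regions (30.9%) and in none at 924 (22.3%). All 80961 regions that merge the top-ranked peaks of the 6 libraries have such a peak by construction, and the shares with more DHT and with more DHT+ENZ libraries were 30.0% and 29.7% there. Over the 3224 DHT-opened regions with a top-ranked peak in any of the 6, these shares were 46.2% and 8.53%. Of the 2517 DHT-closed regions, 786 (31.2%) had more DHT+ENZ libraries, 117 (4.65%) had more DHT libraries and 1328 (52.8%) had no top-ranked peak in any of the 6. Over the 1189 with one, 66.1% had more DHT+ENZ and 9.84% had more DHT libraries.

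Regions that differed by ENZ in RES-A gave the same signs in parental cells. In RES-A, 1672 regions had a top-ranked peak in all 3 DHT libraries and in no DHT+ENZ library, and 1312 had the reverse. These 2 sets share the RES-A DHT libraries with the sets above and are not separate evidence. The first set was top-ranked in 50.1%, 56.7% and 56.3% of cases in the parental DHT libraries and in 38.3%, 32.4% and 31.9% in the parental DHT+ENZ libraries. The second set was top-ranked in 18.8%, 21.8% and 23.1% and in 36.2%, 34.1% and 34.7%, respectively. Neither pair of groups overlapped, with differences of −20.2 and 13.7 percentage points (exact permutation p = 0.1 each).

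Turning to the 6 libraries themselves, few regions were split completely by treatment. Of the 80961 merged regions (1 bp of overlap, hg19), 25075 had a top-ranked peak in every library and 20383 in no more than 1, which was DHT replicate 1 for 9950 of them. A top-ranked peak in all 3 DHT libraries and in no DHT+ENZ library was found at 1126 regions, or 1.39% of all regions. These are called DHT-side regions. The reverse was found at 1055 regions, or 1.3%, which are called DHT+ENZ-side regions. The near balance depended on the use of top-ranked peaks. With all deposited peaks, which merge into 453159 regions, the counts were 442 and 3226. With all peaks at a q of 0.01 they were 403 and 3042. The balance also depended on DHT replicate 1. Without that library the counts were 2195 DHT-side and 1537 DHT+ENZ-side regions, while leaving out any other library gave more DHT+ENZ-side regions. No test applies to a single count per direction, and merged totals for the q of 0.01 and for left-out libraries are not given here.

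**Figure D2:**
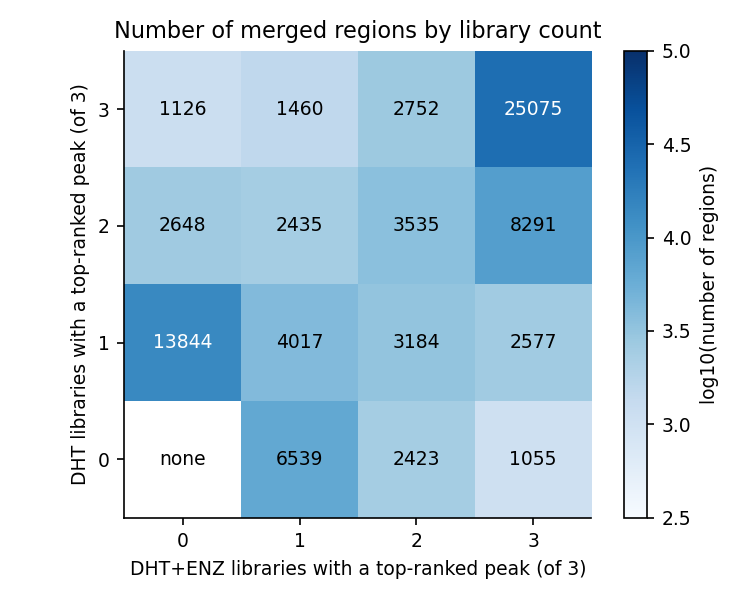
Number of merged regions by how many of the 3 DHT libraries (vertical axis) and of the 3 DHT+ENZ libraries (horizontal axis) had a top-ranked peak; shading is the log10 number of regions. The 25075 regions in all 6 libraries fill 1 corner, the 13844 in a single DHT library are the next largest class, and the 1126 and 1055 split regions stand in the other corners.

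The split regions differed in rank and not in the presence of a peak. Among the 1126 DHT-side regions, a peak of lower rank was present in 99.2%, 99.4% and 97.3% of cases in DHT+ENZ replicates 1, 2 and 3, and in all 3 of them at 1084 regions. Exactly 1 DHT-side region had no peak of any rank with DHT+ENZ. Among the 1055 DHT+ENZ-side regions, a lower-ranked peak was present in 99.9% of cases in both DHT replicates 2 and 3, and in 31.4% in the shallow DHT replicate 1. No DHT+ENZ-side region lacked a peak of any rank in all 3 DHT libraries.

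The fall in rank was moderate for most of them. The median rank of DHT-side regions was 29036, 34289 and 35669 in the DHT libraries and 70029, 74958 and 74527 in the DHT+ENZ libraries, where a peak was present. The corresponding median fold enrichment over background, as the authors' peak caller gave it, was 5.29, 6.45 and 5.12 with DHT and 4.69, 4.26 and 3.96 with DHT+ENZ. DHT+ENZ-side regions had a median rank of 36474, 37903 and 36801 with DHT+ENZ and of 64343, 63826 and 65257 with DHT. These values describe how the regions were chosen and carry no test. A wider gap asked for a place among the first 25000 peaks in all 3 libraries of one group and outside the first 50000 in all 3 of the other. It was met by 53 of the 1126 DHT-side and 20 of the 1055 DHT+ENZ-side regions.

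**Figure D3:**
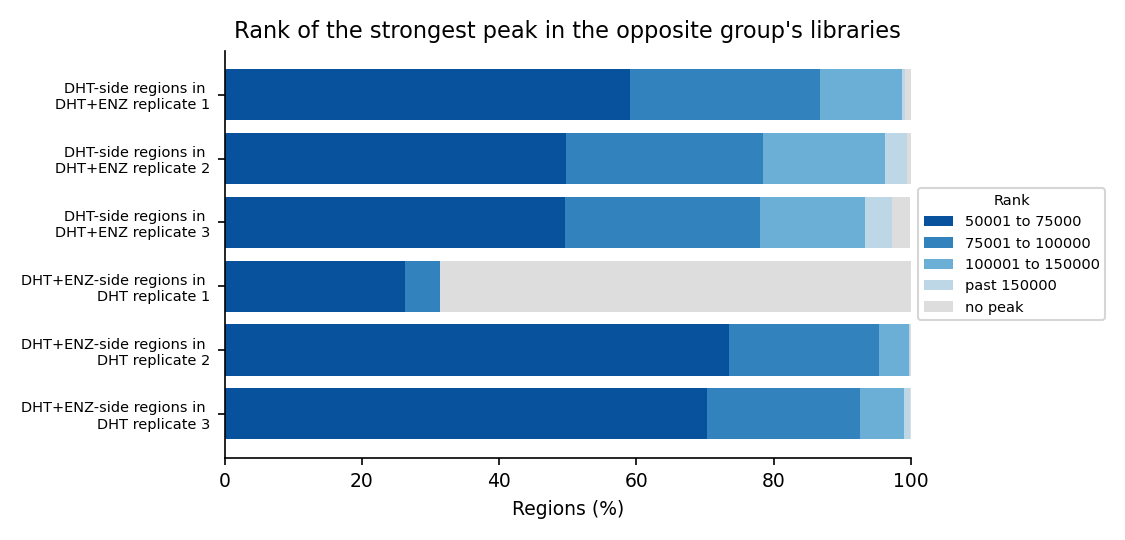
Rank of the strongest peak of DHT-side regions in each DHT+ENZ library and of DHT+ENZ-side regions in each DHT library, as percent of regions (horizontal axis) in 5 classes. Between 49.6% and 59.1% of DHT-side regions fell past rank 50000 and up to rank 75000 with DHT+ENZ, and the 68.6% without a peak in DHT replicate 1 stand apart from the other bars.

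The 1 region without any DHT+ENZ peak lies at chr2:219958170-219958673 (hg19, 504 bp). Its fold enrichment was 6.9, 7.61 and 6.3 in the DHT libraries. A peak was present with a fold enrichment of 5.14 in 1 of 3 parental DMSO libraries and of 3.49 in 1 of 3 parental ENZ libraries. In RES-A a single DHT library had a peak there, with a fold enrichment of 3.91. A DHT-side region with a high rank in its own group, chr18:60988580-60988927, had a fold enrichment of 7.18, 8.55 and 6.39 with DHT and of 4.21, 3.48 and 4.22 with DHT+ENZ. It had 9.39, 9.13 and 8.19 in RES-A with DHT, 7.07, 4.72 and 3.66 in RES-A with DHT+ENZ, and no peak in any RES-A library with DMSO or with ENZ alone. Parental cells did have peaks there without DHT, with 4.63, 5.48 and 3.93 in the DMSO libraries and 3.08 and 2.98 in ENZ replicates 2 and 3, so the DMSO values overlapped those with DHT+ENZ. The DHT+ENZ-side region of highest mean rank percentile, 94.8, was the 385-bp region chr9:44372051-44372435. Its fold enrichment was 8.87, 9.49 and 7.34 with DHT+ENZ and 5.59 and 4.38 in DHT replicates 2 and 3, with no peak in DHT replicate 1.

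Shares at the split regions were also read in the 18 libraries that were not used to choose them. A top-ranked peak at the 1126 DHT-side regions was found in 11.6% to 12.4% of cases in the 3 parental DMSO libraries. It was found in 8.17% to 11.8% in the 3 parental ENZ libraries. Over all merged regions the means were 58.1% and 53.6%, respectively. Neither parental group had DHT, so they give no contrast by androgen. A low rank in parental DHT+ENZ libraries was part of the choice, and low parental shares may follow in part from it. The RES-A values were 36.5% ± 1.05 with DHT, 13.8% ± 0.898 with DHT+ENZ and 7.93% ± 0.591 with DMSO (SD, n = 3 each). In RES-A, DHT+ENZ was 22.7 percentage points below DHT with no overlap of libraries. Over all 80961 regions the same RES-A difference was −1.22 percentage points. None of the RES-A libraries had been used to choose the regions (exact permutation p = 0.1, the smallest possible, and adjusted p = 0.129 over 18 comparisons).

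DHT+ENZ-side regions were often top-ranked without androgen. A top-ranked peak was found in 72.7% ± 8.37 of cases in the parental DMSO libraries and in 67.5% ± 22.3 in the parental ENZ libraries, whose lowest value of 41.8% was the shallow replicate 1 (SD, n = 3 each). The shares in RES-A were 41.5% ± 1.42 with DHT, 53.3% ± 1.11 with DHT+ENZ and 57.9% ± 1.43 with DMSO (SD, n = 3 each). In RES-A, DHT+ENZ was 11.8 percentage points above DHT with no overlap of libraries (exact permutation p = 0.1). All merged regions had a share of 48.0% to 50.4% in these 3 RES-A groups. Their parental means were 58.1% with DMSO and 53.6% with ENZ alone. DHT+ENZ-side regions had to be top-ranked in 3 parental libraries, so higher parental shares may follow in part from that choice.

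**Figure D4:**
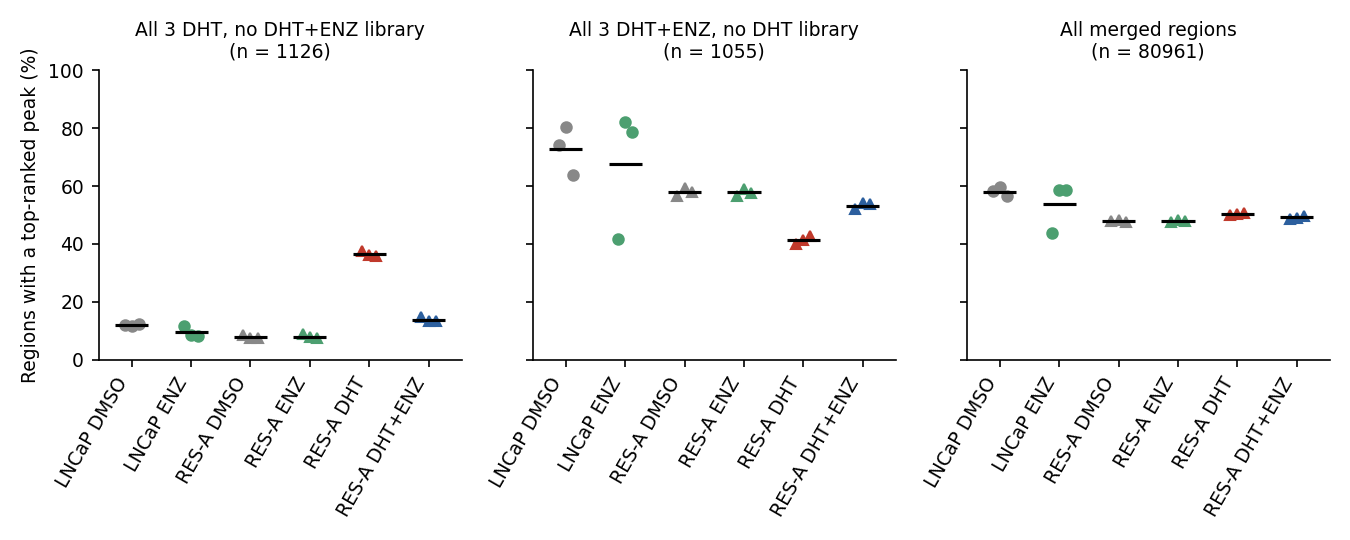
Share of DHT-side, DHT+ENZ-side and all merged regions with a top-ranked peak (vertical axis, percent) in the 18 libraries that were not used to choose them, by line and treatment (horizontal axis); circles are parental LNCaP, triangles are RES-A, and bars are means of 3. DHT-side regions were highest in RES-A with DHT and DHT+ENZ-side regions were lowest there.

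The complete pattern of single regions was less uniform than these means. Of the 1126 DHT-side regions, 298 (26.5%) had a top-ranked peak in all 3 RES-A DHT libraries and 597 (53.0%) had one in none, against 41.1% and 40.4% of all merged regions. In the parental DMSO libraries 829 (73.6%) had none and 18 (1.6%) had one in all 3, against 26.9% and 42.9% of all merged regions. Of the 1055 DHT+ENZ-side regions, 478 (45.3%) had a top-ranked peak in all 3 parental DMSO libraries, near the 42.9% of all merged regions, and 52 (4.93%) in none, against 26.9%. Most DHT-side regions were therefore below the top ranks with DMSO, and most DHT+ENZ-side regions were within them in some DMSO library.

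Fold enrichment at shared regions gave a graded measure of the same contrast. A peak of any rank was present in all 6 libraries at 60277 of 453159 merged regions. Fold enrichment was put on a log2 scale, quantile-normalized and tested with limma. No region passed an adjusted p of 0.05 in either direction (0% of those tested; smallest adjusted p = 0.131), and 6351 regions (10.5%) had an unadjusted p under 0.05. Since a peak in the shallow DHT replicate 1 was required, this test was limited to regions that were strong enough to be called there.

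That count depended on DHT replicate 1. When it was left out, 114284 regions had a peak in all 5 libraries, and 160 of them fell (0.14%) and 65 rose (0.0569%) with DHT+ENZ at an adjusted p under 0.05. When all 6 libraries were kept and limma weighted each library by its estimated quality, 400 of 60277 regions fell (0.664%) and 137 rose (0.227%). Of the 160 regions that fell without DHT replicate 1, 133 were tested in the weighted fit and 130 fell there too, and of the 65 that rose, 39 were tested and 39 rose. No region was called in opposite directions by the 2 fits. Both fits used the same 5 libraries, so their agreement is not separate evidence. Leaving out any other library gave no call.

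The left-out library could be compared with the regions called without it. Of the 160 regions that fell, 133 had a peak in DHT replicate 1. By the order of fold enrichment among the 60277 common regions, DHT replicate 1 was above all 3 DHT+ENZ libraries at 117 of these 133 (88.0%), against 37.2% of all common regions. Of the 65 regions that rose, 39 had a peak in DHT replicate 1, and it was below all 3 DHT+ENZ libraries at 30 of them (76.9%), against 36.0% of all common regions. The same 3 DHT+ENZ libraries had chosen these regions, so part of the excess over all common regions comes from that choice and these shares carry no test.

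The 3 regions of smallest p in each direction over 6 libraries are described by their values in these libraries and in part of the others. The region at chr6:41715158-41715754 (hg19, 597 bp) had a fold enrichment of 7.64, 10.5 and 6.58 with DHT and of 4.19, 2.98 and 2.95 with DHT+ENZ. All DHT libraries were above all DHT+ENZ libraries. The log2 difference was −1.34 (SE 0.17) with an limma adjusted p of 0.131 over 6 libraries, and −1.4 (SE 0.2) with an adjusted p of 0.00485 over 5. It had a fold enrichment of 4.47, 3.94 and 4.4 with DMSO and no peak in any parental library with ENZ alone. In RES-A it had 9.58, 8.88 and 10.1 with DHT, 4.71, 7.11 and 5.67 with DHT+ENZ, and no peak with DMSO. RES-A with ENZ alone did have peaks there, with 3.67, 5.11 and 3.92.

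The region at chr9:111552001-111552513 (513 bp) had a fold enrichment of 7.07, 10.3 and 7.38 with DHT and of 5.12, 3.28 and 3.65 with DHT+ENZ. Its log2 difference over 6 libraries was −1.12 (SE 0.17; limma adjusted p = 0.204). In RES-A it had 7.35, 8.53 and 6.5 with DHT and no peak in any of the other 9 libraries. The region at chr16:88110529-88111417 (889 bp) had 9.41, 11.9 and 8.44 with DHT and 6.99, 4.62 and 5.21 with DHT+ENZ (log2 difference −0.96, SE 0.15, limma adjusted p = 0.204). It had 6.71, 6.67 and 7.8 in RES-A with DMSO, where the regions on chromosomes 6 and 9 had no peak, while in parental cells with DMSO all 3 of these regions had a peak in every library.

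Among regions higher with DHT+ENZ, chr22:46992796-46993236 (441 bp) had a fold enrichment of 6.33, 6.45 and 5.3 with DHT and of 13.3, 12.4 and 10.3 with DHT+ENZ. The log2 difference was 0.83 (SE 0.13; limma adjusted p = 0.204) over 6 libraries and 0.94 (SE 0.12; adjusted p = 0.00276) over 5. The parental DMSO libraries had 13.7, 14.0 and 9.42, which overlap DHT+ENZ. The region at chr17:17349530-17349902 (373 bp) had 4.03, 4.14 and 3.43 with DHT and 6.99, 9.4 and 8.52 with DHT+ENZ. The region at chr1:112462900-112463192 (293 bp) had 5.15, 5.63 and 5.58 with DHT and 10.5, 9.79 and 10.2 with DHT+ENZ. Their log2 differences over 6 libraries were 1.01 (SE 0.17) and 0.76 (SE 0.14), each with an limma adjusted p of 0.204. In RES-A the DHT and DHT+ENZ libraries overlapped at each of these regions. The chr22 region had 7.69, 8.17 and 13.5 with DHT and 14.1, 14.5 and 10.3 with DHT+ENZ there. The chr17 region had 10.5, 13.3 and 15.4 and 16.6, 14.5 and 14.8, respectively. The chr1 region had 13.7, 16.9 and 12.3 and 15.2, 16.2 and 12.9, respectively.

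**Figure D5:**
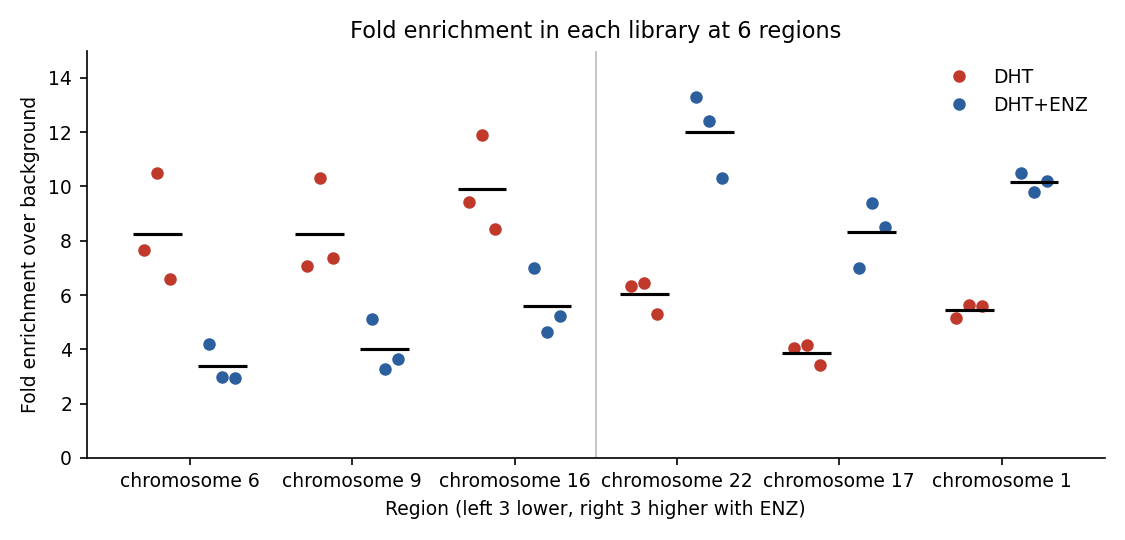
Fold enrichment over background (vertical axis, linear) in each DHT and DHT+ENZ library at the 3 regions with the smallest limma p in each direction, named by chromosome (horizontal axis); points are libraries 1 to 3 from left to right and bars are means of 3. The groups do not overlap at any of the 6 regions, and none passed an adjusted p of 0.05 over all 6 libraries.

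Among the 5 regions of smallest p that fell in the 5-library test, 3 were not among those above. The region at chr12:67934229-67934750 (522 bp) had a fold enrichment of 5.67, 8.45 and 7.73 with DHT and of 4.42, 4.03 and 3.3 with DHT+ENZ, and it fell by 1.15 on the log2 scale (SE 0.18; limma adjusted p = 0.011). Parental cells with DMSO had 3.07 and 4.8 in replicates 1 and 2 and no peak in replicate 3, and those with ENZ alone had no peak in any of 3 libraries. RES-A had 8.16, 7.82 and 4.81 with DHT and no peak with any of the other 3 treatments. The region at chr11:134397137-134397714 (578 bp) fell by 1.23 (SE 0.19; limma adjusted p = 0.011), with 5.18, 9.76 and 8.3 with DHT and 4.89, 2.98 and 4.52 with DHT+ENZ. The parental DMSO libraries had 6.42, 3.43 and 4.06 there. The region at chr1:5787261-5787609 (349 bp) fell by 1.15 (SE 0.18; limma adjusted p = 0.011), with 5.8, 12.2 and 8.3 with DHT and 6.75, 4.92 and 3.48 with DHT+ENZ. In that region the value of DHT replicate 1, which the fit did not use, lay within the range of DHT+ENZ, and DMSO had a peak in replicate 2 alone, with 6.68.

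At 3 further regions that rose in the 5-library test, the parental DMSO libraries overlapped the DHT+ENZ libraries. The region at chr8:94416636-94417073 (438 bp) had 5.46 and 4.36 in DHT replicates 2 and 3, no peak in DHT replicate 1, and 10.2, 9.4 and 8.17 with DHT+ENZ. It rose by a log2 difference of 0.83 (SE 0.14; limma adjusted p = 0.0165), and the DMSO libraries had 6.7, 9.87 and 8.31. The region at chr14:29592215-29592643 (429 bp) had 2.42 and 2.22 in DHT replicates 2 and 3 and 5.57, 5.54 and 5.13 with DHT+ENZ, with a log2 difference of 1.16 (SE 0.2; limma adjusted p = 0.0165). The DMSO libraries had 6.68, 5.14 and 4.94 there. The region at chr17:44050491-44051202 (712 bp) had 4.8 and 3.72 in DHT replicates 2 and 3 and 9.07, 8.95 and 6.95 with DHT+ENZ, with a log2 difference of 0.89 (SE 0.15; limma adjusted p = 0.0229). The DMSO libraries had 8.61, 8.91 and 7.65 there.

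The called regions held different shares of the RES-A sets. Of the 160 regions that fell, 44 (27.5%) overlapped a DHT-opened region of RES-A and 0 overlapped a DHT-closed region, while 3.03% and 1.4% of all 114284 tested regions did so. Seen from the other side, the 44 regions were 1.06% of the 4148 DHT-opened regions. Of the 65 regions that rose, 0 overlapped a DHT-opened region, 4 (6.15%) overlapped a DHT-closed region, and 37 (56.9%) overlapped a region open with and without DHT in RES-A, against 24.5% of all tested regions. The median log2 difference in the 5-library fit was −0.231 over the 3462 tested regions that overlap DHT-opened regions, with 86.0% below 0. It was 0.188 over the 1595 that overlap DHT-closed regions, with 17.3% below 0, and 0.0054 over all tested regions, with 49.0% below 0. With all 6 libraries the medians were −0.194 and 0.183, respectively, so the shift at these sets did not depend on leaving out DHT replicate 1.

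The 160 regions that fell had a top-ranked peak in a mean of 46.5% ± 1.31 of cases in RES-A with DHT, 19.6% ± 1.39 with DHT+ENZ and 6.67% ± 0.958 with DMSO (SD, n = 3 each). In parental cells with DMSO the mean was 13.3% ± 1.56 and with ENZ alone 7.5% ± 2.25 (SD, n = 3 each). The 65 regions that rose had a top-ranked peak in 70.8% ± 6.71 of cases in RES-A with DHT, 88.2% ± 1.73 with DHT+ENZ and 93.3% ± 0.866 with DMSO (SD, n = 3 each). In parental cells these 65 regions had a mean of 86.7% ± 3.18 with DMSO and 82.1% ± 12.5 with ENZ alone (SD, n = 3 each). Over all tested regions the RES-A means lay between 37.6% and 38.8%. The parental means over all tested regions were 43.1% with DMSO and 40.1% with ENZ alone.

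No 10-Mb window passed the test with all 6 libraries when replicate numbers were not used. The share of top-ranked peaks was compared in 306 windows of 10 Mb with limma, and 0 of them (0%) had an adjusted p under 0.05 (smallest adjusted p = 0.135), while 47 (15.4%) had an unadjusted p under 0.05. Without DHT replicate 3, 12 windows were called higher and 2 lower with DHT+ENZ. With all 6 libraries and replicate number as a block, 10 windows were called higher and 7 lower. The labels do not say that these numbers pair the samples. The smallest p was at chr22:30000001-40000000, which held 0.336%, 0.354% and 0.38% of the top-ranked peaks with DHT and 0.41%, 0.41% and 0.412% with DHT+ENZ. The window chr19:30000001-40000000 held 0.37%, 0.388% and 0.42% with DHT and 0.44%, 0.45% and 0.442% with DHT+ENZ. In both windows all DHT+ENZ libraries were above all DHT libraries. In the other direction, chr5:30000001-40000000 held 0.456%, 0.446% and 0.46% with DHT and 0.414%, 0.416% and 0.416% with DHT+ENZ (limma adjusted p = 0.138). Chromosome 19 as a whole had 6 DHT-side regions among 1773 (0.338%), against 1.39% of all regions, and 22 DHT+ENZ-side regions (1.24%). Chromosome 22 had 7 of 1083 (0.646%) and 17 (1.57%), respectively. These chromosomes were singled out after their values were seen.

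Most split regions had no other region of their set within 50 kb. Of the 1126 DHT-side regions, 71 (6.31%) had another within 50 kb, and the longest run held 3 regions. Of the 1055 DHT+ENZ-side regions, 57 (5.4%) had another within 50 kb, and the longest run also held 3. The same share was not computed for equal draws from all merged regions, so whether split regions lie together or apart was not tested. The median length was 466 bp for DHT-side, 423 bp for DHT+ENZ-side and 414 bp for all merged regions.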

How the data were processed

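FAIRE-seq was run by the authors in biological triplicate, with 50-bp single-end reads aligned to hg19 by BWA 0.7.8-r455, duplicates marked with Picard 1.118 and peaks called per library with MACS2 2.1.0. The caller's options are not given in the sources used here. The smallest deposited −log10 q-value is 1.3, near a q of 0.05. The deposited peak tables hold, per peak, a pileup signal in reads, a fold enrichment ratio over local background and −log10 p- and q-values. Peak length, fold enrichment and p all depend in part on depth.

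Peaks on the 24 chromosomes were used for all results except the number of peaks; 359 to 1196 peaks per list of the 6 lay on other sequences. The 50000 peaks of largest −log10 p per library were merged with an overlap of 1 bp; bedtools 2.31.1 gave the same 80961 regions. Background was recovered as (pileup + 1) / fold − 1, which takes the caller's default pseudocount of 1. Python 3.11.15, pandas 2.3.3, numpy 2.4.6, R 4.3.3 and limma 3.58.1 (lmFit, and eBayes with a trend) were used, with Benjamini-Hochberg adjustment. Windows needed a mean of 20 or more top-ranked peaks. Scripts were tested on simulated data. Exact permutation tests are two-sided over libraries and cannot go below 0.1 for 3 against 3. Named regions were the 3 of smallest limma p per direction, and regions with a complete split and no peak of any rank in the other group. The 5 per direction of the 5-library fit and the examples on chromosomes 18 and 9 from position 44372051 were added after their values were seen.

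Members, sets and tests were chosen with earlier results of these data known. Labels share replicate numbers 1 to 3 across groups without saying that these mark a shared day. No sequencing batch is given in the sources used here. Reference genes and sequences at hand were of GRCh38, so gene names, cell line markers, motifs and sequences at these hg19 regions were not analysed here.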

Additional observations from a re-analysis of the deposited data

How the results depend on the processing

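The sign of the difference at RES-A DHT-closed regions, and its mirror at regions with DHT+ENZ but not DHT in RES-A, held under every alternative run, with ranges of 12.8 to 14.3 and 12.5 to 14.7 percentage points when each library was left out. At RES-A DHT-opened regions it was −19.4 to −15.7, and at regions with DHT but not DHT+ENZ in RES-A −22.3 to −19.0. With all deposited peaks in place of top-ranked ones these last 2 differences reversed, to 2.48 and 1.57 percentage points; DHT-opened regions then had a peak in 71.9%, 95.5% and 93.3% of cases with DHT and in 90.6%, 90.6% and 86.9% with DHT+ENZ, so DHT replicate 1 alone lay below. The difference in number of peaks ranged from −24409 to 72366 when each library was left out, and reversed to −24409 without DHT replicate 1. The share of variance in Jaccard distance was 0.255 to 0.354 with each library left out, and 0.209 with all deposited peaks (exact permutation p = 0.4). The exact permutation p was 0.1 without any 1 DHT library, and 0.4, 0.5 and 0.5 without DHT+ENZ replicates 1, 2 and 3.

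DHT-side and DHT+ENZ-side counts numbered 442 and 3226 of 453159 merged regions with all deposited peaks. They were 403 and 3042 with peaks at a q of 0.01 and 700 and 682 with 25000 top-ranked peaks, whose merged totals are not given here. Where no peak of any rank was allowed in the other group, the counts were 1 and 0 of 80961. Leaving out each library gave 1482 to 2195 and 1537 to 2161, since a complete split of 5 libraries is easier to meet. The pair was 2195 and 1537 without DHT replicate 1, and the DHT+ENZ-side count was the larger without any other library. A gap from 25000 to 50000, added after the data were seen, gave 53 and 20 of 80961.

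Of 60277 tested regions, those called lower and higher with DHT+ENZ numbered 1 and 0 with median centring, 283 and 16 with pileup, and 400 and 137 with array weights. The counts were 0 to 160 and 0 to 65 when each library was left out. The highest counts are those without DHT replicate 1, where 114284 regions were tested, and the other left-out fits tested 60544 to 61711. Further settings without DHT replicate 1 were added after the data were seen. Of 114284 tested regions, 196 and 81 were called with median centring, 1743 and 498 with pileup, and 258 and 99 with array weights. At regions with a top-ranked peak, 40 and 25 of 69934 were called. Of 306 windows of 10 Mb, 0 to 2 were called lower and 0 to 12 higher with each library left out, the highest without DHT replicate 3.

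Same-numbered libraries correlated at 0.0536, 0.103 and 0.0218 in their deviations from the group means, not all above 0.1, so the numbers were not taken to pair the samples, although each library correlated best with its own number. With the replicate block, regions split in at least 2 of 3 pairs and never the reverse numbered 5234 and 6055, a looser rule than a complete split. The limma counts stayed at 0 in both directions, windows called lower and higher were 7 and 10, and the exact paired p of each share was 0.25, the smallest that 3 pairs allow. Without replicate 1 of both groups, added later, 1558 and 644 of 115039 tested regions were called with the block and 476 and 108 without it. The cause of these changes was not tested. Depth limits what DHT replicate 1 can show, since a region without a peak there may be open below its detection.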
